A study of Arabidopsis thaliana with 42 samples.

Results

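The late pollen and pollen tube genes followed here in flower buds of Arabidopsis thaliana were taken by locus identifier. They are VGD1 (AT2G47040), VGDH1 (AT2G47030), PPME1 (AT1G69940), ANX1 (AT3G04690), ANX2 (AT5G28680), BUPS1 (AT4G39110), BUPS2 (AT2G21480), RALF4 (AT1G28270), AGL66 (AT1G77980) and AGL104 (AT1G22130). They make up 10 of the 37336 genes in the deposited bud count table, and all 10 passed the filter on low counts. The series measured polyadenylated RNA in 42 libraries of Col-0 plants that were wild type or deficient in methylthioadenosine nucleosidase (MTN), the enzyme that recycles the methylthioadenosine left over when polyamines are made. The 24 bud libraries came from unopened flower buds of wild-type (WT), mtn1-1mtn2-1 and G3 plants, and the labels give G3 the genotype mtn1-1mtn2-1 without saying what the name stands for. Seedlings were raised on MS medium, either plain (mock) or supplemented with the polyamine spermidine (100 µM), and those kept for flowering were then moved to soil. This gave 6 groups of 4 libraries, each made from pooled, ground tissue, and no age is given for the bud plants. The other 18 libraries came from seedlings of WT, mtn1-1mtn2-1 and mtn1-1mtn2-5 plants on the same media, aged 14 days.

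A pollen tube grows only at its tip, through the style to an ovule, and its pectin wall has to be soft enough to extend and strong enough not to burst. Pectin methylesterases such as VGD1, VGDH1 and PPME1 remove methyl groups from that pectin. The receptor kinases ANX1, ANX2, BUPS1 and BUPS2 sit in the tube membrane, bind the secreted peptides RALF4 and RALF19, and keep the tube intact until it reaches the ovule. AGL66 and AGL104 are MADS-box transcription factors of maturing pollen that act in complexes with related factors and bind CArG boxes of the MEF2 type.

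Since those complexes bind such boxes, the 300 bases before each gene start (RefSeq annotation, TAIR10.1) were searched on both strands for the MEF2-type CArG box, whose pattern covers its own reverse complement. A match was found for 4 of the 10 genes, against 694 of 27443 coding genes (2.53%) searched the same way. The matches are printed 5′ to 3′ on the gene's strand, which is the minus strand in each case, with 10 bases on either side and the box in capitals.
VGD1, chr2:19330235-19330264: atgcacggtcCTAATTTTAGaaaccaaaaa
BUPS1, chr4:18225326-18225355: tagcaatttgCTAAATATAGaccattgaat
BUPS2, chr2:9205541-9205570: taacagtttaCTAAAAATAGaaacatcact
AGL104, chr1:7814423-7814452: gtcaaaaattCTAATTTTAGttcctattaa
The first base of the box lies at -57 in VGD1, -107 in BUPS1, -89 in BUPS2 and -97 in AGL104, counted from the gene start. VGD1 and AGL104 carry the same box, and the 2 BUPS genes carry boxes that differ from it and from each other. The windows of BUPS1 and AGL104, and that of ANX1 without a match, also overlap other annotated genes. These are matches of letters and not measured binding sites, and the absence of a match in the other 6 windows says nothing about the factors.

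The library names limit every comparison with WT or G3. MTN1 (AT4G38800), one of the mutated genes, stood at 84.3 to 96.3 CPM (counts scaled to the library size with TMM factors) in the 8 bud libraries that the count table labels G3, at 4.57 to 6.57 CPM in the 8 labelled WT and at 2.70 to 4.32 CPM in the 8 labelled mtn1-1mtn2-1. MTN2 (AT4G34840), the other, stood at 8.16 to 11.9 CPM in labelled G3 and at no more than 0.262 CPM in the rest. This goes against the labels of the count table for WT and G3. The deposited TPM table has these names the other way round: by profile across genes, the 16 count columns named WT or G3 were each closest to a TPM column of the other name, and the 8 named mtn1-1mtn2-1 to a column of their own name. Values below carry the names of the count table, with "labelled G3" for the libraries high in MTN1. Under the names of the TPM table the libraries labelled G3 are WT, those labelled WT are G3, and every difference between these groups keeps its size and takes the opposite sign. With those names MTN1 had a mean of 119 TPM in mock WT buds and 6.85 TPM in mock G3 buds. Mock WT seedlings had 130 TPM, and mock mtn1-1mtn2-1 seedlings 6.55 TPM. By MTN1, the libraries labelled G3 are thus like wild type and those labelled WT like the mutant. Total counts were 75.3 to 92.6 M units per bud library, or 19.4 to 23.9 M fragments at 3.88 units per fragment. The share of counts on rRNA genes was 0.182% to 0.248% in the libraries labelled G3, 1.01% to 1.17% in those labelled WT and 1.66% to 3.005% in mtn1-1mtn2-1, so it is higher in the groups where the late pollen genes are lower, and its part in the results was not tested.

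All 10 genes were highest in the libraries labelled G3, which are like wild type by MTN1. They were lower in those labelled WT and lowest in mtn1-1mtn2-1, in group means on mock medium and on spermidine medium. Against labelled G3 on mock medium, all 10 were lower in mtn1-1mtn2-1 (16.8% of all genes tested were called lower), by 1.56-fold (ANX1) to 7.40-fold (ANX2). In labelled WT 8 were lower (14.6% of all genes). A gene was called at an adjusted p under 0.05 in edgeR's quasi-likelihood test over 25730 genes. The summed level of the 10 genes was 1407 to 1851 CPM in the 4 mock libraries labelled G3, 1017 to 1267 CPM in those labelled WT and 530.5 to 733 CPM in mtn1-1mtn2-1, without overlap. Buds are bulk tissue, so fewer pollen grains of this stage and less RNA per grain cannot be told apart.

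**Figure D1:**
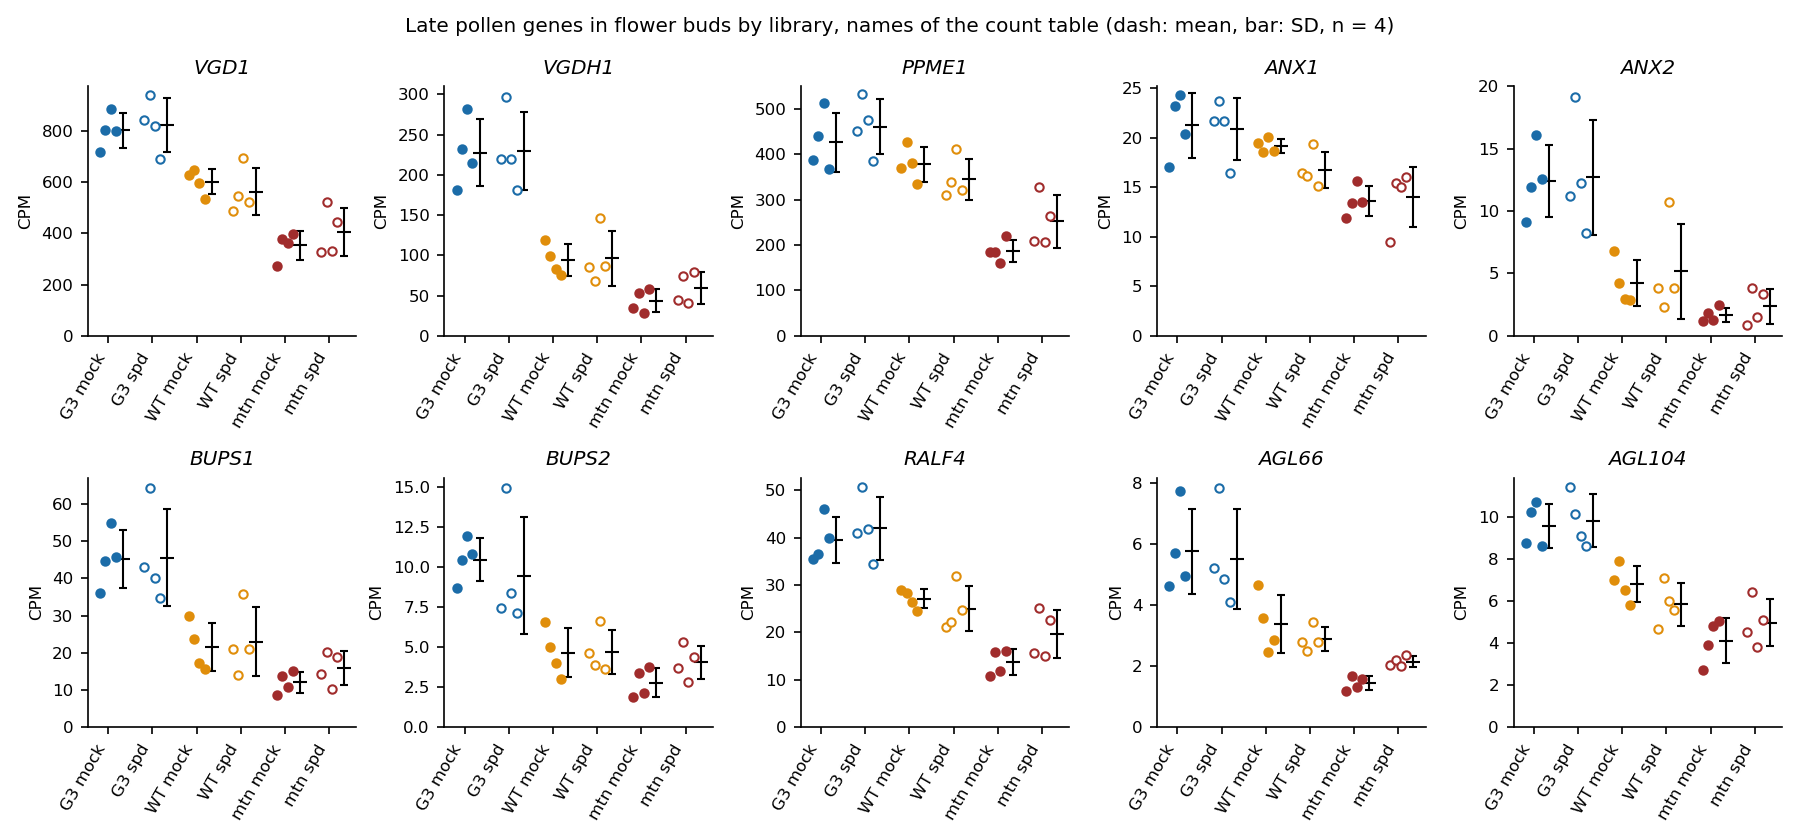
TMM-scaled CPM (y axes, each from 0) of the 10 genes in the 24 bud libraries, by group under the names of the count table (x axes, spd for spermidine). Filled points are mock libraries, open points spermidine libraries, and dashes and bars the mean and SD of 4 libraries. VGD1 lies at 719 to 884 CPM in the mock libraries labelled G3, 534 to 649 CPM in those labelled WT and 273 to 398 CPM in mtn1-1mtn2-1.

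Levels between genes were compared in TPM, which is scaled by transcript length, over all 24 libraries. VGD1 had the highest median, 390.3 TPM (range 175 to 658), and stood above 98.8% of the genes in the TPM table by its mean. PPME1 followed at 368 TPM (166 to 570.3), and then a kindred wall enzyme, VGDH1, at 59.3 TPM (18.7 to 207). RALF4, the ligand, had 32.0 TPM (12.5 to 64.5), and BUPS1 10.2 TPM (3.97 to 31.3). The other receptor kinases and the factors came last, with AGL104 at 7.99 TPM, ANX1 at 7.49 TPM, AGL66 at 2.99 TPM, BUPS2 at 2.51 TPM and ANX2 at 1.94 TPM. Neighbours in this order overlapped in range over the 24 libraries, so the order is that of their medians only.

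VGD1, the pectin methylesterase needed for tube growth through the style, measured 719, 804, 884 and 801 CPM in the 4 mock libraries labelled G3, 629.8, 649, 596 and 534 CPM in those labelled WT, and 273, 379, 364 and 398 CPM in mtn1-1mtn2-1. The 3 groups did not overlap. Its log2 fold change was -0.41 (SE 0.14, edgeR adjusted p 0.0335) for labelled WT against labelled G3 and -1.18 (SE 0.15, adjusted p 2.80e-06) for mtn1-1mtn2-1 against labelled G3. VGDH1, its close relative, measured 181, 232, 282 and 215 CPM in labelled G3, 119, 99.7, 83.3 and 75.0 CPM in labelled WT, and 34.7, 53.5, 28.2 and 57.5 CPM in mtn1-1mtn2-1. These groups did not overlap either, and the differences were larger, at -1.27 (SE 0.26, adjusted p 0.000916) and -2.39 (SE 0.27, adjusted p 1.24e-06). PPME1, a methylesterase that shapes the growing tube, measured 386, 439, 513 and 367 CPM in labelled G3 and 368, 426, 380.2 and 334 CPM in labelled WT, where the groups overlap and the difference was not called (log2 -0.18, SE 0.14, adjusted p 0.391). In mtn1-1mtn2-1 PPME1 stood lower than in any other mock library, at 185, 185, 159 and 219 CPM (log2 -1.19 against labelled G3, SE 0.15, adjusted p 2.58e-06). VGD1 and VGDH1 are neighbours on chromosome 2 and share 91.8% of aligned coding bases with an identical run of 74 bases, so reads could be split between them and the values of either are uncertain to that degree.

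Among the receptor kinases, ANX2 differed most and ANX1 least. ANX2 measured 9.09, 11.9, 16.1 and 12.6 CPM in the mock libraries labelled G3, 6.84, 4.24, 2.98 and 2.90 CPM in those labelled WT, and 1.15, 1.79, 1.31 and 2.44 CPM in mtn1-1mtn2-1. The groups are apart, with log2 fold changes of -1.55 (SE 0.45, adjusted p 0.0117) and -2.89 (SE 0.47, adjusted p 7.05e-05) against labelled G3. ANX1, which acts redundantly with ANX2, measured 17.1, 23.2, 24.3 and 20.3 CPM in labelled G3 and 19.5, 18.5, 20.01 and 18.7 CPM in labelled WT, where all 4 values lie within the range of labelled G3 (log2 -0.15, SE 0.14, adjusted p 0.486). In mtn1-1mtn2-1 it measured 11.9, 13.4, 15.6 and 13.5 CPM, below all libraries labelled G3 (log2 -0.64, SE 0.14, adjusted p 0.00152). ANX1 is overlapped on the opposite strand by AT3G04700 and AT3G04710, and the counting is not stated to use strand, so reads of ANX1 and of these genes may not be separated. AT3G04700 stood at 14.6 to 29.2 CPM in mock labelled G3 and 4.09 to 6.14 CPM in mock mtn1-1mtn2-1, and AT3G04710 at 15.1 to 17.6 and 20.6 to 24.4 CPM.

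BUPS1, the partner of the ANX receptors in the same complex, measured 36.0, 44.6, 55.0 and 45.7 CPM in the mock libraries labelled G3, 29.8, 23.6, 17.2 and 15.8 CPM in those labelled WT, and 8.81, 13.7, 10.9 and 15.0 CPM in mtn1-1mtn2-1. BUPS2, its paralog, measured 8.70, 10.4, 11.9 and 10.8 CPM, then 6.57, 5.01, 4.03 and 3.02 CPM, then 1.89, 3.37, 2.12 and 3.74 CPM in the same order of groups. For both genes all libraries labelled G3 lie above all others, while labelled WT and mtn1-1mtn2-1 are apart for BUPS1 and overlap for BUPS2. Against labelled G3, the log2 fold change in labelled WT was -1.07 for BUPS1 (SE 0.27, adjusted p 0.00470) and -1.17 for BUPS2 (SE 0.28, adjusted p 0.00307). The corresponding values for mtn1-1mtn2-1 were -1.90 for BUPS1 (SE 0.28, adjusted p 1.93e-05) and -1.91 for BUPS2 (SE 0.29, adjusted p 2.68e-05). RALF4, the peptide ligand, measured 35.4, 36.6, 46.1 and 39.9 CPM in labelled G3, 29.0, 28.3, 26.4 and 24.6 CPM in labelled WT, and 10.8, 15.97, 11.96 and 16.1 CPM in mtn1-1mtn2-1. The 3 groups of RALF4 did not overlap, and its log2 fold changes against labelled G3 were -0.54 (SE 0.17, adjusted p 0.0172) and -1.53 (SE 0.17, adjusted p 9.20e-07).

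Both transcription factors were lower as well. AGL66 measured 4.64, 5.71, 7.75 and 4.96 CPM in the mock libraries labelled G3, 4.65, 3.57, 2.46 and 2.85 CPM in those labelled WT, and 1.19, 1.69, 1.32 and 1.58 CPM in mtn1-1mtn2-1. Labelled WT touches the lower end of labelled G3, with a log2 fold change of -0.77 (SE 0.21, adjusted p 0.00761), and mtn1-1mtn2-1 lies below both (log2 -1.995 against labelled G3, SE 0.22, adjusted p 6.94e-07). AGL104 measured 8.76, 10.3, 10.7 and 8.64 CPM, then 7.001, 7.91, 6.54 and 5.82 CPM, then 2.71, 3.94, 4.82 and 5.06 CPM in the same order. Its groups did not overlap, with log2 fold changes of -0.49 (SE 0.18, adjusted p 0.0410) and -1.21 (SE 0.18, adjusted p 2.47e-05) against labelled G3.

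On spermidine medium the groups kept the same order of means. VGD1 measured 843, 942, 818 and 689 CPM in labelled G3, 487, 548, 694 and 522 CPM in labelled WT, and 329, 522, 332 and 443 CPM in mtn1-1mtn2-1. Replicate 3 of labelled WT thus lies just above the lowest library labelled G3, while mtn1-1mtn2-1 is below all libraries labelled G3 and overlaps labelled WT (log2 -1.02 against labelled G3, SE 0.14, adjusted p 2.61e-05). VGDH1 measured 219.9, 297, 219.8 and 181 CPM, then 85.0, 67.5, 146 and 87.1 CPM, then 44.1, 74.8, 41.1 and 79.3 CPM in the same order, with both other groups below labelled G3. ANX2 measured 11.2, 19.1, 12.3 and 8.27 CPM in labelled G3, 3.80, 2.29, 10.7 and 3.83 CPM in labelled WT, and 0.878, 3.82, 1.55 and 3.32 CPM in mtn1-1mtn2-1, where only the last group is apart from labelled G3. AGL104 measured 11.5, 10.2, 9.11 and 8.64 CPM, then 4.67, 7.13, 6.02 and 5.598 CPM, then 4.56, 6.46, 3.81 and 5.09 CPM, so labelled WT and mtn1-1mtn2-1 overlap and both lie below labelled G3 (log2 -0.75, SE 0.18, adjusted p 0.00323 and log2 -0.98, SE 0.18, adjusted p 0.000332).

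**Figure D2:**
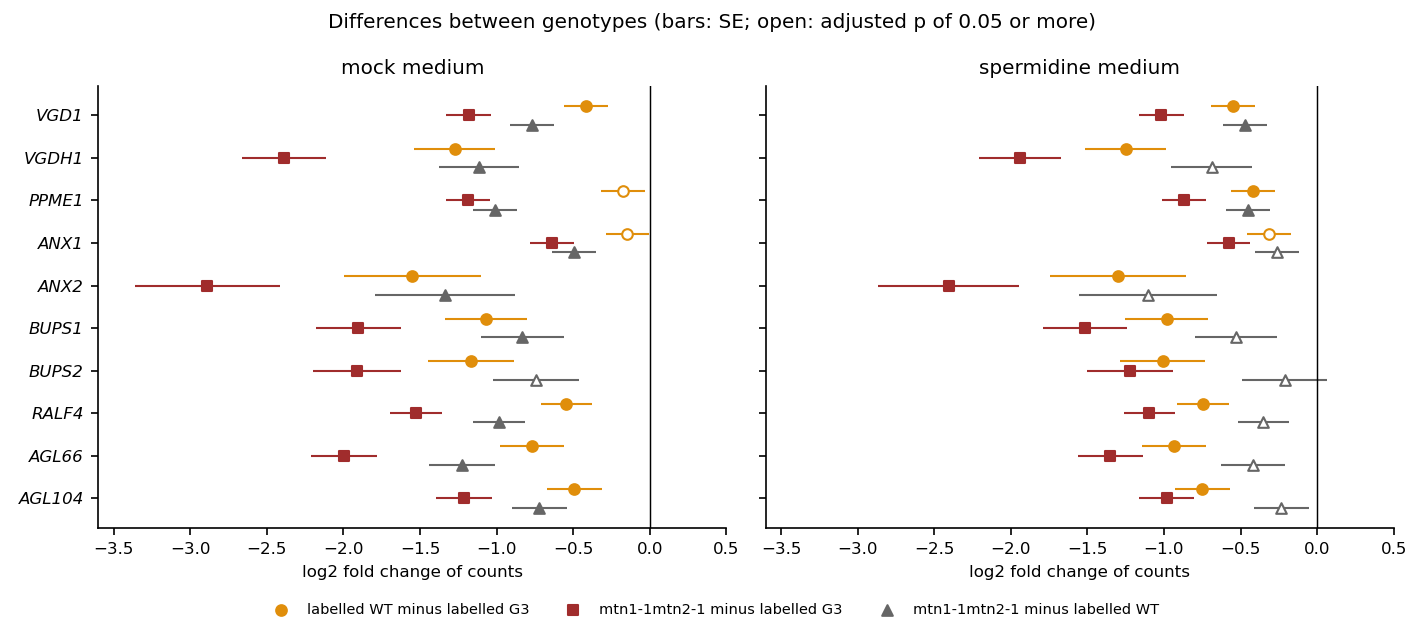
Log2 fold changes of counts (x axis) for the 10 genes (y axis) in 3 comparisons of genotypes on mock medium (left) and spermidine medium (right), with bars for the SE and open symbols where the edgeR adjusted p was 0.05 or more. All 60 values lie below 0, from -0.15 to -2.89 on mock medium.

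On mock medium labelled WT, low in MTN1, was thus lower than labelled G3 for 8 of the 10 genes. It was higher for 0 (14.9% of all genes were called higher), with a median log2 fold change of -0.66 beside 0.01 for all genes. The groups did not overlap for 7, against 17.4% of all genes in that direction. On spermidine medium 9 were lower, all but ANX1 (log2 -0.32, adjusted p 0.111), against 13.6% of all genes, with a median of -0.84, and the groups of 5 did not overlap, against 16.7%. The count on mock medium fell to 5 without replicate 3 of labelled G3 and to 5 without replicate 4 of labelled WT, and the count on spermidine medium to 5 without replicate 2 of labelled G3.

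For mtn1-1mtn2-1 against labelled G3, all 10 genes were lower on either medium, against 13.9% of all genes on spermidine medium. For all 10 the groups did not overlap, against 15.6% of all genes on mock medium and 14.6% on spermidine medium. The median log2 fold change was -1.72 on mock medium and -1.16 on spermidine medium. With labelled WT as the reference, 9 of 10 were lower on mock medium, against 11.6% of all genes, with a median of -0.91, and the groups of 9 did not overlap, against 11.2%. The exception was BUPS2 (log2 -0.74, adjusted p 0.0660). On spermidine medium only VGD1 (log2 -0.47, adjusted p 0.0271) and PPME1 (log2 -0.45, adjusted p 0.0321) were called lower, 2 of 10 against 8.23% of all genes, with a median of -0.44. The groups did not overlap for 1, AGL66, against 9.97% of all genes. The count of called genes was 0 without replicate 1 or replicate 3 of mtn1-1mtn2-1 or without replicate 3 of labelled WT, and 0 in a model of these 2 groups alone. Under the names of the TPM table labelled WT is G3, to which the labels give the genotype mtn1-1mtn2-1. The comparison of mtn1-1mtn2-1 with labelled WT is then between 2 groups of the same labelled genotype. The comparisons share their groups, so these counts are not independent of each other.

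Within each library the level of a gene was set against that of its nearest relative in the list, as a ratio of CPM whose size also reflects gene length and which is compared only between groups. VGDH1 amounted to 28.2% ± 2.90 (SD, n = 4) of VGD1 in the mock libraries labelled G3, 15.6% ± 2.28 in labelled WT and 12.3% ± 3.11 in mtn1-1mtn2-1. ANX2 amounted to 58.2% ± 7.09 of ANX1, 22.1% ± 9.40 and 12.4% ± 4.37 in the same groups. In both pairs every mock library labelled G3 lies above every other mock library. The exact two-sided permutation p of each of these 4 differences was 0.0286, the smallest that 4 against 4 libraries allow, and 0.114 after adjustment over 36 such tests. BUPS2 amounted to 23.2% ± 1.09, 21.5% ± 1.78 and 22.6% ± 2.56 of BUPS1, and these groups overlap (exact permutation p 0.171 and 0.686 against labelled G3). AGL66 amounted to 59.6% ± 8.70, 49.5% ± 12.2 and 36.4% ± 8.29 of AGL104, apart for mtn1-1mtn2-1 against labelled G3 only (exact permutation p 0.0286, adjusted 0.114). On spermidine medium VGDH1 to VGD1 was again higher in all libraries labelled G3 than in the other groups, at 27.7% ± 2.58 in labelled G3, 16.9% ± 3.59 in labelled WT and 14.5% ± 2.42 in mtn1-1mtn2-1 (exact permutation p 0.0286 for both against labelled G3, adjusted 0.114). ANX2 to ANX1 was apart from labelled G3 (59.8% ± 14.1) in mtn1-1mtn2-1 (16.3% ± 7.69, exact permutation p 0.0286, adjusted 0.114) and overlapped it in labelled WT (29.5% ± 17.9, exact permutation p 0.0857, adjusted 0.280). BUPS2 to BUPS1, which overlapped on mock medium, was higher in all 4 libraries of mtn1-1mtn2-1 than in labelled G3 (25.7% ± 1.88 and 20.5% ± 2.44, exact permutation p 0.0286, adjusted 0.114). These groups all but touch, with 23.25% as the lowest value in mtn1-1mtn2-1 and 23.22% as the highest in labelled G3. Mock labelled G3 spans 21.67% to 24.18%. AGL66 to AGL104 overlapped between these groups on spermidine medium (exact permutation p 0.200). Coding identity is 81.3% for ANX1 with ANX2, 82.4% for BUPS1 with BUPS2 and 81.9% for AGL66 with AGL104, and reads shared between paralogs could move these ratios. ANX1, unlike ANX2, was also found in all 18 seedling libraries, at 1.80 to 3.16 TPM, and is overlapped by genes on the opposite strand. Reads of ANX1 from outside pollen or from those genes could move the ratio of ANX2 to ANX1, and this was not tested.

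**Figure D3:**
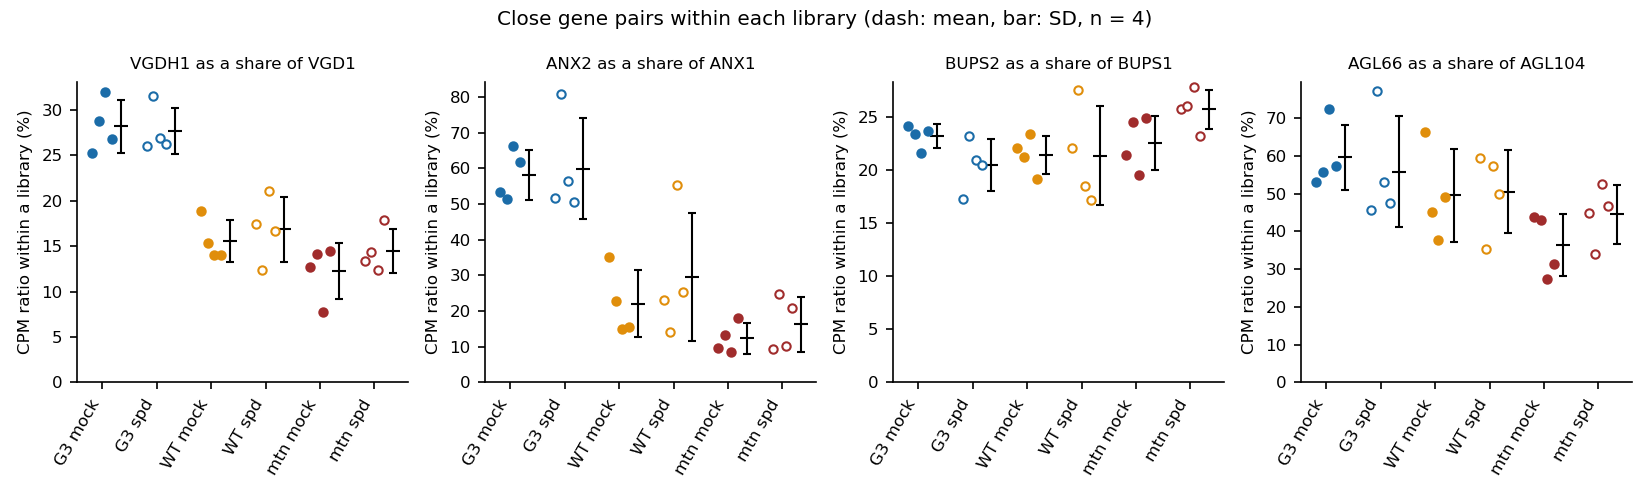
CPM of 1 gene as a percentage of that of its relative in the same library (y axes, from 0) in the 6 groups of 4 libraries (x axes), with filled points for mock, open points for spermidine, and dashes and bars for the mean and SD. The mock libraries labelled G3 lie at 25.2% to 31.9% for VGDH1 to VGD1, and those of the other 2 mock groups at 7.73% to 18.8%.

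Libraries of the same group also differed together. After each group mean was removed from the log2(TPM + 1) values, all 45 pairs of the 10 genes had a positive Pearson r over the 24 libraries, from 0.35 to 0.94 with a median of 0.76, given as a description because the genes share libraries and scaling. AGL104 followed the others least, with a mean r of 0.50, and RALF4 most, with 0.80. In the count table, replicate 2 of labelled G3 on spermidine medium was the highest of its group for 9 of the 10 genes, with 942 CPM for VGD1, 297 CPM for VGDH1 and 64.3 CPM for BUPS1. Replicate 3 of labelled WT on the same medium was also the highest of its group for 9 of 10, with 10.7 CPM for ANX2 beside 3.80, 2.29 and 3.83 CPM in the other 3. In both libraries the exception was AGL104.

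Of 10 partners of these receptors and ligands, 9 were lower in mtn1-1mtn2-1 than in labelled G3 on mock medium, against 16.8% of all genes (median log2 -1.50, beside 0.01 for all genes). In labelled WT 5 of 10 were lower, against 14.6% of all genes (median -0.74). RALF19, the second ligand of the pollen tube receptors, stood at a log2 fold change of -1.94 in mtn1-1mtn2-1 (SE 0.22, adjusted p 1.18e-06). The co-receptors LLG2 and LLG3, membrane-anchored proteins that bind the ligand with the kinases, stood at -0.89 (adjusted p 4.69e-05) and -1.23 (adjusted p 0.000782). The NADPH oxidases RBOHH and RBOHJ, which produce reactive oxygen at the tube tip, stood at -3.16 (adjusted p 7.05e-07) and -1.49 (adjusted p 1.98e-06). The protein kinase AT2G41970 stood at -1.52 (adjusted p 5.53e-06). Of 4 genes annotated as leucine-rich repeat family proteins, AT3G19020 was at -2.07 (adjusted p 2.54e-05), AT1G49490 at -1.31 (adjusted p 0.000525) and AT4G33970 at -2.51 (adjusted p 0.000433). The fourth, AT2G15880, was not called (log2 0.84, SE 0.52, adjusted p 0.231): it measured 9.64, 40.96, 105.5 and 114 CPM in mock mtn1-1mtn2-1 and 31.0, 38.8, 46.1 and 35.3 CPM in mock labelled G3. These 4 libraries of mtn1-1mtn2-1 spread on both sides of labelled G3, and against labelled WT, where it measured 30.4, 20.7, 19.6 and 16.2 CPM, the gene was called higher (log2 1.64, adjusted p 0.0312).

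In a wider list of 25 pollen tube growth genes, 24 were lower in mtn1-1mtn2-1 than in labelled G3 on mock medium (median log2 -1.33) and 16 in labelled WT (median -0.65), against the same 16.8% and 14.6% of all genes. The receptor-like kinase PRK5 had the lowest value in labelled WT (log2 -1.59, adjusted p 0.00344), and PRK1 had the highest and was not called (log2 1.62, SE 0.84, adjusted p 0.161). PRK1 was low, at means of 0.871 CPM in labelled WT and 0.284 CPM in labelled G3. Of 6 other pollen transcription factors, 4 were lower in mtn1-1mtn2-1, against 16.8% of all genes, and 1 in labelled WT, a share near the 14.6% of all genes. That 1 was AGL65, a MADS-box partner of AGL66 and AGL104 (log2 -0.75, adjusted p 0.00570). MYB120, which acts in the tube, was not called in labelled WT (log2 0.61, SE 0.85, adjusted p 0.647). It was near the floor, at means of 0.256 CPM in labelled WT and 0.167 CPM in labelled G3, so its direction is uncertain. Of 7 male germline genes, which act in the sperm lineage inside the grain, 3 were lower in mtn1-1mtn2-1 (median -0.39), against 16.8% of all genes, and 1 in labelled WT, again near the 14.6% of all genes. That 1 was the zinc finger factor DAZ1 (log2 -0.65, adjusted p 0.0331), and the gamete fusion gene HAP2 was not called there (log2 0.41, adjusted p 0.307).

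Markers of other bud tissues did not all follow. Of 11 tapetum genes, which serve the cell layer that feeds young pollen, 0 were lower and 5 higher in labelled WT than in labelled G3 on mock medium (14.9% of all genes were called higher), and likewise 0 and 5 in mtn1-1mtn2-1 (16.2%). LAP6, an enzyme of pollen wall precursors, was the highest in labelled WT (log2 0.76, adjusted p 0.000594), and the tapetum regulator DYT1 the lowest and not called (log2 -1.21, adjusted p 0.0611; DESeq2's Wald test called it, adjusted p 0.0326). The summed level of the tapetum genes was 595 to 835 CPM in mock labelled G3, 842 to 1013 CPM in mock labelled WT and 749.99 to 1089 CPM in mock mtn1-1mtn2-1, which overlaps between labelled G3 and mtn1-1mtn2-1. Its median was higher than in labelled G3 in both other groups but not higher in mtn1-1mtn2-1 than in labelled WT (634, 926 and 916 CPM), and its part in the results was not tested. None of the 11 was at 0 in all libraries of a group. The 5 meiosis genes summed to 19.0 to 26.8 CPM, 22.5 to 23.9 CPM and 20.4 to 25.3 CPM in the same order. Those near-equal sums hold opposite calls in labelled WT, where ASY1, a protein of the meiotic chromosome axis, was higher (log2 1.57, adjusted p 2.92e-07) and the recombinase DMC1 lower (log2 -0.30, adjusted p 0.0104). Those calls stand beside 14.9% of all genes called higher and 14.6% lower. In mtn1-1mtn2-1 0 of 5 were called (16.2% of all genes higher and 16.8% lower). The 7 ovule and carpel genes summed to 126 to 144 CPM, 148 to 167 CPM and 124 to 145 CPM. Of these, 3 were higher in labelled WT (14.9% of all genes), with the fruit regulator SHP1 highest (log2 0.42, adjusted p 0.00119) and SHP2 lowest and not called (log2 -0.20, adjusted p 0.0952). In mtn1-1mtn2-1 1 of the 7 was lower and 1 higher, near the shares of all genes (16.8% and 16.2%). Of 5 floral organ identity genes 4 were lower in labelled WT (14.6% of all genes) and 2 in mtn1-1mtn2-1 (16.8%). PI, a petal and stamen identity factor, was lowest in labelled WT (log2 -0.77, adjusted p 0.00127), and AP1 was highest and not called (log2 -0.05, adjusted p 0.681). Of 10 relatives of the receptors, ligands and co-receptors that work outside pollen, 0 were lower and 1 higher in labelled WT (14.6% and 14.9% of all genes), and 3 lower and 0 higher in mtn1-1mtn2-1 (16.8% and 16.2%).

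**Figure D4:**
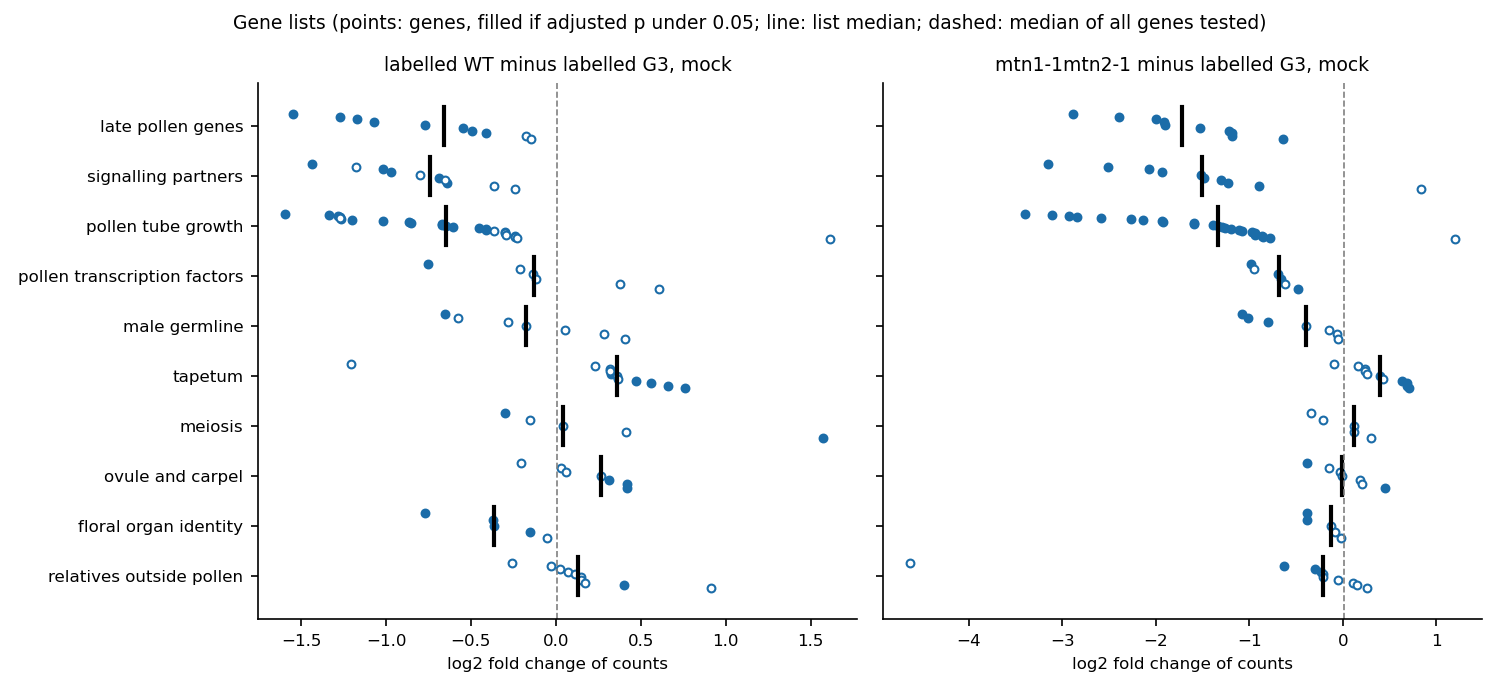
Log2 fold changes of counts (x axes) of single genes in 10 lists (y axis) on mock medium, for labelled WT against labelled G3 (left) and mtn1-1mtn2-1 against labelled G3 (right). Filled points had an edgeR adjusted p under 0.05, black lines are list medians and dashed lines the median of all 25730 genes; the late pollen genes have medians of -0.66 and -1.72.

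Spermidine did not move any of the 10 genes past the threshold in labelled G3, labelled WT or mtn1-1mtn2-1. In labelled G3, 0 of 10 were called (0.0155% of all genes were), and the median log2 fold change was 0.02. There 0 had an unadjusted p under 0.05, against 2426 of all 25730 genes. In labelled WT the count was 0 of 10 (0.948% of all genes), again with 0 at an unadjusted p under 0.05 (3031 of 25730 genes) and a median of -0.11. In mtn1-1mtn2-1 it was 0 of 10 (0.0972% of all genes), but all 10 values lay above 0, with a median of 0.45 beside 0.01 for all genes. Of the 10, 3 had an unadjusted p under 0.05, against 2641 of 25730 genes. The 10 genes share libraries and differ together within groups, so their shared sign is not 10 separate observations. DESeq2's Wald test and limma on TPM also called 0 of 10 under each label.

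The 3 genes were RALF4, PPME1 and AGL66. RALF4 measured 15.7, 25.1, 15.1 and 22.7 CPM in mtn1-1mtn2-1 on spermidine medium, beside 10.8 to 16.1 CPM on mock medium, which overlaps (log2 0.52, 95% interval 0.19 to 0.85, p 0.00554, edgeR adjusted p 0.242). PPME1 measured 209, 328, 205 and 265 CPM beside 159 to 219 CPM, which overlaps too (log2 0.43, 95% interval 0.15 to 0.71, adjusted p 0.260). AGL66 measured 2.04, 2.19, 2.004 and 2.38 CPM beside 1.19 to 1.69 CPM and was the only one of the 10 without overlap, against 1.48% of all genes with spermidine higher (log2 0.58, 95% interval 0.16 to 0.99, adjusted p 0.327). The spermidine effect in mtn1-1mtn2-1 was compared with that in labelled G3 and in labelled WT by an interaction term. It was called for 0 of 10 against labelled G3 (0.0233% of all genes) and for 0 of 10 against labelled WT (0.346%). Labelled WT against labelled G3 also gave 0 of 10 (0.00389%). At an unadjusted p under 0.05 there were 1, 3 and 0 of the 10 genes in the same order. Of all 25730 genes, 2829, 3337 and 1434 had such a p, so the 1 gene is near the share of all genes. The intervals remain wide for the weaker genes: in mtn1-1mtn2-1 that of ANX2 runs from -0.37 to 1.41.

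**Figure D5:**
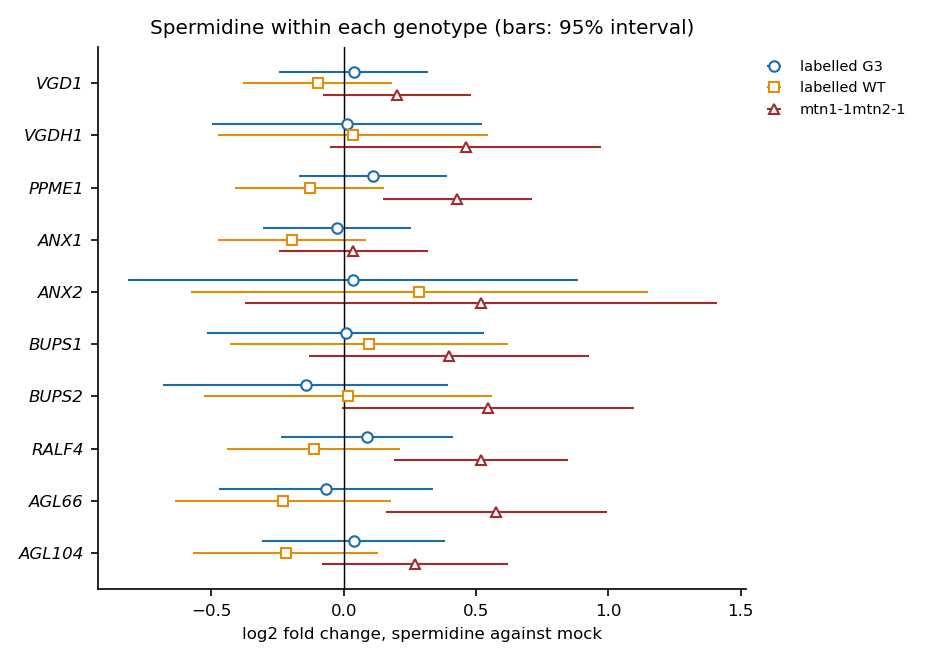
Log2 fold changes of spermidine against mock medium (x axis) for the 10 genes (y axis) in labelled G3, labelled WT and mtn1-1mtn2-1. Bars are approximate 95% intervals built from the edgeR fit, and symbols are open because no adjusted p was under 0.05. The values for mtn1-1mtn2-1 lie between 0.04 and 0.58, those for labelled G3 between -0.14 and 0.11, and those for labelled WT between -0.23 and 0.29.

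The label of late pollen genes was checked in the 18 seedling libraries of the series, a tissue without anthers. Such a check can show expression outside flowers, but not which floral tissue or pollen stage holds the RNA. They hold 3 libraries each of wild-type, mtn1-1mtn2-1 and mtn1-1mtn2-5 seedlings on mock and on spermidine medium, aged 14 days. PPME1 and AGL66 were at 0 in all 18, and RALF4 and ANX2 at or under 7 and 4 count units, less than 3 fragments. VGD1, VGDH1, BUPS2 and AGL104 were above 3 fragments in 4, 3, 1 and 4 libraries, at no more than 0.248 TPM. ANX1 and BUPS1 go against the label in part: ANX1 was found in all 18 at 1.80 to 3.16 TPM and BUPS1 in all 18 at 0.345 to 0.689 TPM. For ANX1 the reads may be in part those of AT3G04700 and AT3G04710, which overlap it on the opposite strand, and this was not tested.

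The genes outside all lists whose bud profile was most like the mean of the 10, by Pearson r of log2(TPM + 1) over 24 libraries among 16641 genes with a mean of at least 5 TPM, were AT3G01270 (r 0.993, a pectate lyase family protein), AT3G49540 (r 0.992, uncharacterized), AT1G03050 (r 0.991, an ENTH/ANTH/VHS superfamily protein), AT5G16500 (r 0.991, LIP1, a kinase of pollen tube guidance) and AT5G50830 (r 0.990, annotated as a nuclear polyadenylated RNA-binding protein). By Spearman's rho, 2 of these 5 were again among the 5 most alike, AT3G01270 and AT3G49540.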

How the data were processed

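Polyadenylated RNA was sequenced from 24 flower-bud and 18 seedling libraries. The deposited tables hold estimated counts per gene (whole numbers, used as deposited) and TPM, both made by the authors; low counts gather at multiples of several units, and 1 bud fragment was estimated as 3.88 units from that spacing. Trim Galore, STAR, StringTie and the build TAIR10 are named per the submitters' processing notes, and their order, settings, versions and the strand setting of counting are not given in the sources used here. Libraries were prepared by either of 2 providers, per the labels' protocols, which do not say by which, so the provider and the group cannot be told apart.

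Samples were grouped by the name of their column, and 0 columns were left without a sample. Contrasts between labels, for spermidine and for interactions came from 1 edgeR 4.0.16 quasi-likelihood model (R 4.3.3, TMM, filterByExpr) over the 6 bud groups. Benjamini-Hochberg adjustment was over 25730 genes, and the script was tested on simulated data. All adjusted p-values without another tool's name are edgeR's. CPM are TMM-scaled. Alternatives used DESeq2 1.42.0, limma 3.58.1 on log2(TPM + 1) and log2(TPM + 0.1), other filters, sets of samples, names and left-out libraries. Ratios between relatives were compared by exact permutation tests, added after the data were seen.

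The members and the gene lists were chosen with earlier results of these data known. The genes named are the 10 members, MTN1, MTN2, all 10 partners of the receptor pathway, the highest and lowest gene of other lists for labelled WT against labelled G3 on mock medium, and the 5 most alike genes; AT3G04700 and AT3G04710 were named for their overlap with ANX1. Names were compared with the RefSeq table of TAIR10.1, which holds the name used for 85 of 98 list genes. Of the rest, BUPS1, BUPS2, RALF4 and RALF19 keep those names here, and the others that are named are given by identifier. No 2 of the 36 pairs of replicates were identical. Nothing says that the replicates came from separate plants, so p-values measure only the spread between these samples, which may be technical. Counts set a limit of 3 fragments for detection, which covers counting error only.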

Additional observations from a re-analysis of the deposited data

Results flagged for a closer look

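Among the 60 sets of 4 libraries checked (10 genes in 6 groups), 2 held a library that stood far from the other 3, measured as its gap to the nearest library over the whole range of the group. Chance flags about 1 in 20 such sets. ANX1 was lowest in replicate 1 of mtn1-1mtn2-1 on spermidine medium, at 9.47 CPM beside 15.4, 15.02 and 15.99 CPM. BUPS2 was highest in replicate 2 of labelled G3 on spermidine medium, at 14.9 CPM beside 7.44, 8.39 and 7.12 CPM. No interaction between label and spermidine was called for any of the 10 genes.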

How the results depend on the processing

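The names of the libraries changed more than any other setting run. With the names of the TPM table on the counts, and in each of 3 limma fits on TPM (log2(TPM + 1), log2(TPM + 0.1) and log2(TPM + 1) without a filter), the count of the 10 genes lower in WT than in G3 went from 8 to 0 on mock medium and from 9 to 0 on spermidine medium, while 8 and 9 were higher. The count lower in mtn1-1mtn2-1 on spermidine medium became 2 against G3 and 10 against WT. For WT against G3 on mock medium, the log2 fold changes were then 0.41 for VGD1, 1.27 for VGDH1, 1.55 for ANX2, 1.07 for BUPS1, 1.17 for BUPS2, 0.54 for RALF4, 0.77 for AGL66, 0.49 for AGL104, 0.75 for AGL65, 1.59 for PRK5, 0.65 for DAZ1 and -0.76 for LAP6 under the exchanged names. In limma on log2(TPM + 1) they were 0.44, 1.29, 1.25, 1.05, 0.98, 0.56, 0.64, 0.46, 0.71, 1.03, 0.45 and -0.74 in the same order of genes. On spermidine medium the exchanged names gave 0.55 for VGD1, 1.25 for VGDH1, 0.42 for PPME1, 1.30 for ANX2, 0.98 for BUPS1, 1.01 for BUPS2, 0.74 for RALF4, 0.93 for AGL66 and 0.75 for AGL104. In limma they were 0.54, 1.27, 0.41, 1.1, 0.94, 0.72, 0.73, 0.67 and 0.65 in that order. DYT1 reached 0.65 in limma for WT against G3 on mock medium, and 0.56 for mtn1-1mtn2-1 against G3. In that last comparison AGL65 took 0.057 under the exchanged names and 0.006 in limma, and LAP6 took -0.12 and -0.17. For WT against G3 on mock medium DMC1 took 0.302 and 0.272, ASY1 -1.574 and -1.099, SHP1 -0.421 and -0.332 and PI 0.769 and 0.666 under the exchanged names and in limma, and for mtn1-1mtn2-1 against G3 ASY1 took -1.458 and -1.025 and PI 0.648 and 0.403. Putting the other names on the same counts turns the sign of WT against G3 by construction; the limma fits also differ in table, scale and test, and the cause of their differences in size was not tested. With only the compared groups in the model, the count lower in mtn1-1mtn2-1 than in labelled WT on spermidine medium went from 2 to 0 (edgeR adjusted p 0.0996 for VGD1 and 0.0915 for PPME1), ANX2 was not called in labelled WT on that medium (adjusted p 0.0511), and on mock medium 8 of 10 partners in place of 5 were lower in labelled WT, where PRK1 was called higher (adjusted p 0.00536).

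With each library left out in turn, the count lower in labelled WT than in labelled G3 ranged from 5 to 8 on mock medium (5 without replicate 3 of labelled G3 or replicate 4 of labelled WT) and from 5 to 10 on spermidine medium (5 without replicate 2 of labelled G3). Against labelled G3 the count lower in mtn1-1mtn2-1 was 10 throughout on both media, and against labelled WT it ranged from 6 to 10 on mock medium and from 0 to 3 on spermidine medium. DESeq2 size factors, DESeq2's Wald test, the filters on counts and counts divided by the units per fragment kept the counts of called members within 1.5 times of those given. The counts for spermidine and for the interactions were 0 in every setting run. Same-numbered libraries deviated together little in most pairs: of 60 pairs, 9 had r over 0.1 (median 0.006, range -0.14 to 0.30). The highest r was that of replicate 2 of mtn1-1mtn2-1 on mock and spermidine medium. Of 24 libraries, 10 were closest to their own number, with 4 numbers to choose from, so some pairing is not excluded. With the replicate number as a block, 8 and 9 of the 10 genes were lower in labelled WT than in labelled G3 on mock and spermidine medium, and no call of a member changed; DYT1 became called lower in labelled WT on mock medium (log2 -1.23, edgeR adjusted p 0.049), as it did in DESeq2's Wald test and with counts divided by units per fragment. DESeq2's Wald test also called BUPS2 lower in mtn1-1mtn2-1 than in labelled WT on mock medium (adjusted p 0.0422), and without a filter on low counts ANX2 was not called there (adjusted p 0.0524). With 1 library left out, the smallest exact p for a ratio between relatives is above 0.05, so no such test could pass. Without replicate 2 of labelled WT on mock medium, SHP2 was called lower there (log2 -0.27, edgeR adjusted p 0.0389). Depth limits AGL66, BUPS2 and ANX2 most, with medians of 1.94 to 2.99 TPM.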
